A study of Mus musculus with 12 samples.

Results

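The 8 Wnt pathway target genes Axin2, Sp5, Lef1, Tcf7, Tcf7l1, Cdx1, Nkd1 and Ccnd1 were chosen by symbol, as known readouts and nuclear factors of canonical Wnt signalling. All 8 were found among the 23412 genes counted. Poly-A RNA of male v6.5 mouse embryonic stem cells (mESCs), grown on gelatin in serum with leukemia inhibitory factor and no added inhibitors stated, was sequenced in bulk in 12 libraries, 3 for each of 4 genotypes, to ask how the chromatin proteins HMGN1 and HMGN2 act on transcription. HMGN1 and HMGN2 are small proteins that bind nucleosomes. The genotypes were wild-type (WT) mESCs, Hmgn1-/- mESCs with a homozygous frameshift deletion in Hmgn1, Hmgn2-/- mESCs with a homozygous frameshift insertion in Hmgn2, and Hmgn1-/-Hmgn2-/- (double-knockout) mESCs in which Hmgn1 was edited on top of the existing Hmgn2 insertion. Each knockout line was grown from a sorted, edited cell, so each knockout genotype is 1 clone, and effects of the genotype and of the clone cannot be told apart.

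In canonical Wnt signalling, a secreted Wnt ligand binds a Frizzled receptor with its LRP5 or LRP6 partner, and the destruction complex built on AXIN and APC stops marking beta-catenin for degradation. Beta-catenin then enters the nucleus, binds DNA-bound TCF/LEF proteins and switches on target genes, among them genes whose products damp the pathway again. In mESCs the pathway favours self-renewal, in large part by relieving repression by TCF7L1, a TCF/LEF protein that is abundant in these cells.

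Library totals ran from 17337908 to 31448468 counts. Levels are given as counts-per-million (CPM) of the library total after TMM scaling, and the scaling factors lay between 0.97 and 1.02. The targeted genes followed the labels. Hmgn1 stood at 662, 600 and 614 CPM in WT mESCs, at 138, 139 and 141 CPM in Hmgn1-/- mESCs, at 545, 556 and 640 CPM in Hmgn2-/- mESCs and at 21.5, 19.9 and 21.4 CPM in double-knockout mESCs. Hmgn2 stood at 137, 123 and 120 CPM in WT mESCs and at 105, 113 and 109 CPM in Hmgn1-/- mESCs, against 50.7, 54.5 and 53.7 CPM in Hmgn2-/- mESCs and 53.8, 50.5 and 54.2 CPM in double-knockout mESCs. Each targeted transcript was thus lower in every library of the lines that carry its edit than in every other library. Of the 10 mESC markers examined, Pou5f1 was the most abundant, with group means of 1830 to 1980 CPM. Replicate 3 of the Hmgn2-/- mESCs stood farther from its group than any other library, with a chi-square per degree of freedom of 36.4 and 20.6 against its 2 replicates, where all other replicate pairs lay between 3.4 and 12.1.

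Among the 8 genes, levels per length in WT mESCs covered a wide range. Per kilobase of annotated exon, Ccnd1, the G1 cyclin D1, had the highest level at 57.1 ± 6.94 CPM (mean ± SD, n = 3). The TCF/LEF genes Tcf7 and Tcf7l1 followed at 19.8 ± 1.59 and 17.9 ± 1.14 CPM per kilobase, a difference within their spread. A low tier held Axin2 at 4.15 ± 0.615, Cdx1 at 3.05 ± 0.719, Lef1 at 2.8 ± 0.354 and Sp5 at 2.71 ± 0.895 CPM per kilobase, with no neighbours in that order apart by more than the sum of their SDs. Nkd1 was the lowest at 0.428 ± 0.0994 CPM per kilobase. By level per length Ccnd1 ranked 872 of 21737 genes, Tcf7l1 2875 and Nkd1 11539. All 8 genes were above 30 counts in every library, and the lowest value was 31 counts, for Nkd1. All 8 passed the filter on low counts in each of the 6 comparisons below.

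Axin2, the negative-feedback scaffold of the destruction complex, lies at chr11:108920349-108950783 on the plus strand of GRCm38, and Tcf7l1 at chr6:72626378-72789254 on the minus strand. Sp5, a zinc-finger target gene that reports pathway activity, lies at chr2:70474923-70477729 on the plus strand, and Lef1 at chr3:131110471-131224356 on the plus strand. Tcf7 lies at chr11:52252371-52283014 on the minus strand, Nkd1 at chr8:88521354-88594884 on the plus strand and Ccnd1 at chr7:144929931-144939925 on the minus strand. Exons of Ccnd1 overlap 1100 bases of Oraov1 on the opposite strand, and Oraov1 stood at a mean of 11.6 CPM in WT mESCs against 269 CPM for Ccnd1. Exons of Tcf7l1, Axin2 and Lef1 overlap annotated antisense transcripts by 179, 209 and 1208 bases. Whether counting used the strand is not given in the sources used here, so reads of these genes and of their overlapping partners cannot be told apart.

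RefSeq promoter windows (GRCm38.p6, 250 bases before to 50 after a transcript start) were found for 6 of the 8 genes, Axin2, Sp5, Lef1, Tcf7, Tcf7l1 and Nkd1, 10 windows in all. Each was searched on both strands for CTTTGA and CTTTGT, the letters at the core of the site that TCF/LEF proteins prefer. Of all 32851 promoter windows, 31.2% hold at least 1 of these, 16% hold CTTTGA and 18.7% hold CTTTGT. The windows of Axin2 and Tcf7l1, the 2 genes that passed the test below, are shown with those of Sp5 and of the downstream Lef1 start, which held the most matches. The Sp5 window, chr2:70474673-70474972 on the plus strand, holds 5 matches. In the Tcf7l1 window, chr6:72788996-72789295 on the minus strand, 1 match was found, and in the Axin2 window, chr11:108920099-108920398 on the plus strand, none. Of the 4 Lef1 windows, 3 around the upstream starts hold none and the downstream one, chr3:131156044-131156343 on the plus strand, holds 3. The 2 Tcf7 windows and the Nkd1 window hold no match. Capitals mark the matches, read on the gene's strand, where a match on the other strand appears as TCAAAG or ACAAAG. A match describes letters in a window and shows no binding.
Sp5: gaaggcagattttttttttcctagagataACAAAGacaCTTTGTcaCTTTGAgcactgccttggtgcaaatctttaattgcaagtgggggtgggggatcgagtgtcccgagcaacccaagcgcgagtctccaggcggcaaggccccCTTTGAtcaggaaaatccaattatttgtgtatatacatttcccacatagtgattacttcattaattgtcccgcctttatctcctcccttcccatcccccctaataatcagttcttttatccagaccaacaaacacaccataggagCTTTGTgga
Tcf7l1: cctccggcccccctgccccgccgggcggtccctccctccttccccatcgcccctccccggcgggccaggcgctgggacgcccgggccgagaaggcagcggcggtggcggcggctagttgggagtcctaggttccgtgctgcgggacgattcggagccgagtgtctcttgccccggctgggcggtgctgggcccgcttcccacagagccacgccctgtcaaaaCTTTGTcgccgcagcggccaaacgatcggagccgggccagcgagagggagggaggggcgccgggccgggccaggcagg
Axin2: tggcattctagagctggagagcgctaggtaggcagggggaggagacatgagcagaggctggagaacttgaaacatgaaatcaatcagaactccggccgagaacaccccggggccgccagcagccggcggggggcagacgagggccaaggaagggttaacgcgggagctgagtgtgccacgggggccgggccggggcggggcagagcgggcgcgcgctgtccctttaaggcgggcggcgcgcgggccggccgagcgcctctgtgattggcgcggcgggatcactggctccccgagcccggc
Lef1: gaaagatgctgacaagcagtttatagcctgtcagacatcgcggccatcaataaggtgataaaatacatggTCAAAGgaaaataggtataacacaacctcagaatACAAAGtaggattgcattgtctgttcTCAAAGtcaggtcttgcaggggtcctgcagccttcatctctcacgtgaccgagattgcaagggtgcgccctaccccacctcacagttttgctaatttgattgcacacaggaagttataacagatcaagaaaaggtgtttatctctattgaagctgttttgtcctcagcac

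The first question was whether loss of HMGN1, of HMGN2 or of both changed these genes. None of the 8 moved 2-fold in any knockout: the 24 fold changes against WT mESCs ran from 0.688 to 1.34, and no 95% interval reached a 2-fold change in either direction. The quasi-likelihood test of edgeR was used throughout, with p-values adjusted over all genes tested (Benjamini-Hochberg). By this test 0 of the 8 genes passed an adjusted p under 0.01 with at least a 2-fold change in each of the 3 comparisons with WT mESCs, where 5.98% of all genes passed for Hmgn1-/-, 5.15% for Hmgn2-/- and 6.3% for double-knockout mESCs. DESeq2 also placed 0 of the 8 past that threshold in each comparison. With any fold change allowed, an adjusted p under 0.01 was reached by 0 of 8 genes in Hmgn1-/- mESCs (17.3% of all genes), by 0 of 8 in Hmgn2-/- mESCs (9.97%) and by 2 of 8 in double-knockout mESCs (18%). Those 2 were Axin2, which rose, and Tcf7l1, which fell. At an unadjusted p under 0.05, 4, 3 and 4 of the 8 genes passed, against 38.7%, 31% and 38.9% of all genes, so the genes' share was near that of the whole transcriptome. DESeq2 gave 1, 0 and 2 of the 8 at an adjusted p under 0.01, the 1 being Lef1. The median log2 fold changes of the 8 were 0.11, -0.11 and -0.14, beside 0.00, 0.01 and 0.00 over all genes tested. These 3 comparisons share the WT libraries. In bulk RNA, fewer cells that express a gene and less RNA of it per cell cannot be told apart.

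**Figure D1:**
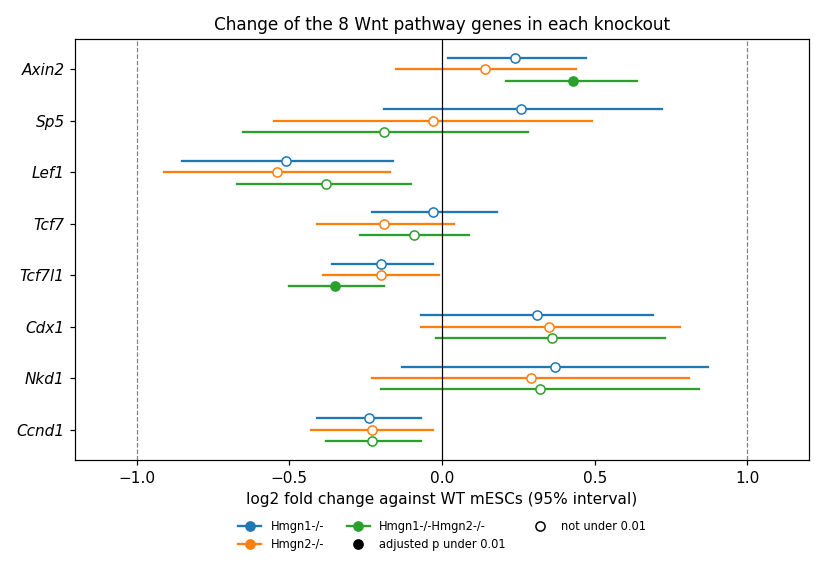
Log2 fold change of the 8 Wnt pathway genes in each knockout against WT mESCs (points) with 95% intervals (lines) from edgeR, 3 libraries per genotype, where filled points have an adjusted p under 0.01 and dashed lines mark a 2-fold change. All 24 intervals lie inside the dashed lines, and the filled points are Axin2 at 0.43 and Tcf7l1 at -0.35 in double-knockout mESCs.

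Axin2 is among the most general targets of beta-catenin and feeds back on the pathway as part of the destruction complex. Its levels were 19.3, 23.2 and 26.1 CPM in WT mESCs and 30.7, 29.8 and 31.1 CPM in double-knockout mESCs, so every double-knockout library lay above every WT library. Levels in the single knockouts were 26.8, 25.6 and 28.5 CPM in Hmgn1-/- mESCs and 24.4, 28.6 and 21.9 CPM in Hmgn2-/- mESCs, and both sets overlapped WT mESCs. In double-knockout mESCs Axin2 rose 1.34-fold (95% interval 1.15 to 1.56), a log2 fold change of 0.43 (SE 0.102, edgeR adjusted p = 0.00613). The single knockouts gave 0.24 (SE 0.106, adjusted p = 0.102) for Hmgn1-/- mESCs and 0.14 (SE 0.134, adjusted p = 0.534) for Hmgn2-/- mESCs. WT replicate 1 was the lowest library, and without it the log2 fold change in double-knockout mESCs was 0.31 with an adjusted p of 0.0132. The call was also lost without WT replicate 2 (0.017), without double-knockout replicate 1, 2 or 3 (0.0208, 0.0197 and 0.025) and with all 12 libraries in a single fit (0.0107), and over all 12 alternatives the adjusted p ran from 0.000857 to 0.025 while the direction held in each.

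**Figure D2:**
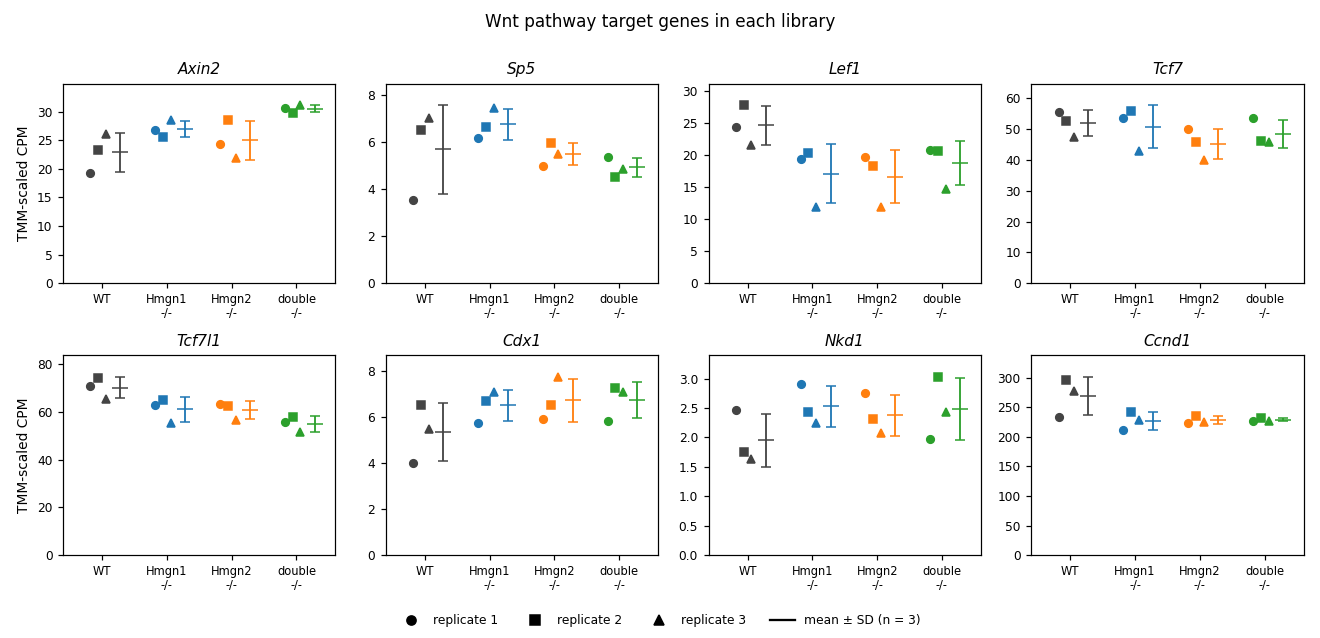
TMM-scaled CPM of each Wnt pathway gene in the 12 libraries, with replicate numbers as symbols and the mean ± SD (n = 3) beside each genotype. Lef1 and Tcf7l1 were lower in all 9 knockout libraries than in any WT library, and the 3 Axin2 values of double-knockout mESCs (29.8 to 31.1) lay above the WT values (19.3 to 26.1).

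Nkd1, which binds Dishevelled and damps signalling, is another feedback gene of the set. It was counted sparsely, at 31 to 79 counts per library. Its levels were 2.47, 1.75 and 1.63 CPM in WT mESCs, 2.91, 2.44 and 2.25 CPM in Hmgn1-/- mESCs, 2.76, 2.31 and 2.08 CPM in Hmgn2-/- mESCs and 1.98, 3.03 and 2.43 CPM in double-knockout mESCs. Each knockout mean lay above the WT mean, but all 3 groups overlapped WT mESCs. The log2 fold changes were 0.37, 0.29 and 0.32, with adjusted p-values of 0.27, 0.457 and 0.362 in edgeR. At this depth the 95% interval in Hmgn1-/- mESCs still held a 1.83-fold increase, the highest upper bound of the set.

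Sp5 encodes a transcription factor and is induced directly by beta-catenin. It stood at 3.53, 6.5 and 7.01 CPM in WT mESCs, 6.14, 6.64 and 7.43 CPM in Hmgn1-/- mESCs, 4.99, 5.94 and 5.47 CPM in Hmgn2-/- mESCs and 5.34, 4.52 and 4.86 CPM in double-knockout mESCs. WT replicate 1 lay below every other library, and the remaining WT libraries lay above every Hmgn2-/- and double-knockout library. The log2 fold changes against WT mESCs were 0.26, -0.03 and -0.19, with edgeR adjusted p-values of 0.391, 0.95 and 0.572. Without WT replicate 1 they were -0.01, -0.30 and -0.46, with adjusted p-values of 0.958, 0.234 and 0.0274.

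Tcf7l1 encodes the TCF/LEF member that mainly represses its targets in mESCs, until beta-catenin displaces it or lowers its amount. Its levels were 71, 74.3 and 65.4 CPM in WT mESCs and 55.6, 57.9 and 51.5 CPM in double-knockout mESCs. The single knockouts had means between these 2 genotypes, although their replicate 3 libraries lay within the double-knockout range, at 63, 65 and 55.3 CPM in Hmgn1-/- mESCs and 63.2, 62.5 and 56.5 CPM in Hmgn2-/- mESCs. All 9 knockout libraries were below the lowest WT library, although the highest of them, at 65 CPM, nearly reached it. In double-knockout mESCs Tcf7l1 fell to 78.6% of the WT level, a log2 fold change of -0.35 (SE 0.0716, 95% interval -0.50 to -0.19, edgeR adjusted p = 0.00232). The single knockouts gave -0.20 (SE 0.0755, adjusted p = 0.0693) for Hmgn1-/- mESCs and -0.20 (SE 0.0858, adjusted p = 0.141) for Hmgn2-/- mESCs, neither past the threshold. The call in double-knockout mESCs was lost without WT replicate 2 (0.0133) and without double-knockout replicate 3 (0.0144), and over all 12 alternatives the adjusted p ran from 0.000239 to 0.0144. Gm15401, whose exons overlap Tcf7l1, stood at a mean of 0.286 CPM in WT mESCs and 0.43 CPM in double-knockout mESCs.

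Lef1, a TCF/LEF gene that is itself a beta-catenin target, had the largest shift of the set against WT mESCs in both single knockouts. WT libraries held 24.3, 27.8 and 21.6 CPM. The knockout libraries held 19.3, 20.3 and 11.9 CPM in Hmgn1-/- mESCs, 19.7, 18.2 and 11.9 CPM in Hmgn2-/- mESCs and 20.8, 20.6 and 14.7 CPM in double-knockout mESCs. All 9 were below the lowest WT library. The fitted levels were 70.3%, 68.8% and 76.6% of WT, with log2 fold changes of -0.51 (SE 0.16), -0.54 (SE 0.168) and -0.38 (SE 0.131) and edgeR adjusted p-values of 0.0285, 0.0454 and 0.0411, all short of the 0.01 limit. In all 4 genotypes replicate 3 held the least Lef1 RNA. A fit that blocks on the replicate number placed Lef1 past the limit in Hmgn1-/- mESCs at -0.53 (SE 0.0972, adjusted p = 0.000144) and in double-knockout mESCs at -0.39 (SE 0.0868, adjusted p = 0.00293), where 24.4% and 22.1% of all genes passed an adjusted p under 0.01. The adjusted p for Lef1 covered 0.000144 to 0.109 over the 12 alternatives in Hmgn1-/- mESCs and 0.00293 to 0.173 in double-knockout mESCs.

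Tcf7, which encodes TCF1, the TCF/LEF member that mainly activates in mESCs, showed no shift against WT mESCs past the 0.01 limit. It stood at 55.7, 52.6 and 47.4 CPM in WT mESCs, 53.6, 56 and 42.8 CPM in Hmgn1-/- mESCs, 49.9, 45.7 and 40.1 CPM in Hmgn2-/- mESCs and 53.7, 46 and 45.8 CPM in double-knockout mESCs. Every knockout group overlapped WT mESCs. The log2 fold changes were -0.03, -0.19 and -0.09, with edgeR adjusted p-values of 0.872, 0.253 and 0.463, and the 95% intervals of the fold change reached no lower than 0.752 and no higher than 1.13 in the 3 knockouts.

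Cdx1 is a homeobox gene that Wnt signals induce in the early embryo and the gut, and lies at chr18:61018862-61036199 on the minus strand. It stood at 4, 6.5 and 5.48 CPM in WT mESCs. In the knockouts it stood at 5.75, 6.68 and 7.06 CPM (Hmgn1-/-), 5.91, 6.51 and 7.73 CPM (Hmgn2-/-) and 5.82, 7.23 and 7.09 CPM (double knockout). The means were higher than in WT mESCs, but each group overlapped it. Log2 fold changes of 0.31, 0.35 and 0.36 had edgeR adjusted p-values of 0.222, 0.251 and 0.153.

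Ccnd1 drives entry into the cell cycle and is a Wnt target in several tissues, with many other inputs. WT libraries held 233, 297 and 277 CPM. Levels were 211, 243 and 228 CPM in Hmgn1-/- mESCs, 223, 235 and 226 CPM in Hmgn2-/- mESCs and 227, 232 and 227 CPM in double-knockout mESCs. Only the double-knockout libraries lay all below WT replicate 1, the lowest WT library, and the other WT libraries lay above all 9 knockout libraries. The log2 fold changes were -0.24 (SE 0.0798), -0.23 (SE 0.0919) and -0.23 (SE 0.0735), with edgeR adjusted p-values of 0.0379, 0.115 and 0.0326. With that block Ccnd1 passed in Hmgn1-/- mESCs (-0.24, SE 0.0529, adjusted p = 0.00123, over all 12 alternatives 0.000208 to 0.175). Without WT replicate 1 it passed in Hmgn1-/- mESCs (-0.34, adjusted p = 0.000208) and in double-knockout mESCs (-0.32, adjusted p = 0.000172, over all 12 alternatives 0.000172 to 0.155). Oraov1, which shares exon bases with Ccnd1, had means of 11.6, 11.6, 12.6 and 11.5 CPM in the WT, Hmgn1-/-, Hmgn2-/- and double-knockout mESCs.

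Counting genes whose 3 knockout libraries did not overlap the 3 WT libraries gave Lef1 and Tcf7l1 in Hmgn1-/- mESCs, the same pair in Hmgn2-/- mESCs, and Axin2, Lef1, Tcf7l1 and Ccnd1 in double-knockout mESCs. These are 2, 2 and 4 of the 8 genes, beside 42%, 35.8% and 42.4% of all genes tested, and whether the set differed from genes at large was not tested. Along with these values, all 8 primitive endoderm markers examined, Gata6, Gata4, Sox17, Sox7, Pdgfra, Foxa2, Dab2 and Cubn, were past the threshold and higher in double-knockout mESCs, and 6 of 8 in each single knockout. Of all genes, 5.98%, 5.15% and 6.3% passed it in either direction in Hmgn1-/-, Hmgn2-/- and double-knockout mESCs. The markers were chosen with earlier results of these data known, so their count is no independent finding. The study had itself reported increases of Gata6, Sox17 and Pdgfra in the same knockouts. The summed level of the 8 markers was 13.6, 16 and 16.5 CPM in WT mESCs, 121, 91.6 and 97.7 CPM in Hmgn1-/- mESCs, 147, 127 and 90.5 CPM in Hmgn2-/- mESCs and 306, 303 and 283 CPM in double-knockout mESCs. Cubn was the most abundant of them in the knockouts and none was at or below 3 counts throughout a genotype. Sox17, with 16, 8 and 10 counts in the WT libraries, passed the filter on low counts through the knockouts, where it is high. Their part in the results for Axin2, Tcf7l1, Lef1 and Ccnd1 was not tested.

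The next question was whether the knockout lines differed from each other. None of the 8 genes reached an adjusted p under 0.01 in edgeR or DESeq2 in any of the 3 comparisons between knockouts, where 0.352% of all genes did so for Hmgn2-/- against Hmgn1-/- mESCs, 1.09% for double-knockout against Hmgn1-/- mESCs and 0.0434% for double-knockout against Hmgn2-/- mESCs. At an unadjusted p under 0.05 there were 0, 2 and 1 of 8, beside 3.2%, 9.53% and 4.44% of all genes. Groups did not overlap for 1, 2 and 1 of the 8 genes, beside 8.07%, 15% and 10.2%. Axin2 was higher in all double-knockout libraries than in all Hmgn1-/- and all Hmgn2-/- libraries. Its log2 differences were 0.18 (95% interval 0.02 to 0.34, adjusted p = 0.428) and 0.29 (0.05 to 0.52, adjusted p = 0.907), so the rise against WT mESCs was not shown to exceed that of either single knockout. Sp5 was lower in all double-knockout libraries (4.52 to 5.34 CPM) and in all Hmgn2-/- libraries (4.99 to 5.94 CPM) than in all Hmgn1-/- libraries (6.14 to 7.43 CPM), with log2 differences of -0.45 (SE 0.136, adjusted p = 0.171) and -0.30 (SE 0.142, adjusted p = 1) in edgeR. The other 6 genes overlapped in every comparison between knockouts, and the 24 fold changes among knockouts ran from 0.734 to 1.22. Across all genes 24, 70 and 6 passed the threshold in the 3 comparisons (0.176%, 0.511% and 0.0434%). Among them were 7 of the 8 primitive endoderm markers, higher in double-knockout than in Hmgn1-/- mESCs, and Dab2 of these markers, higher in double-knockout than in Hmgn2-/- mESCs. Blocking on the replicate number moved the count of genes past the threshold for double-knockout against Hmgn2-/- mESCs from 6 to 32.

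The 8 genes also varied with replicate number. In 5 of them the same replicate number was the lowest in all 4 genotypes, which held for 1752 (15.2%) of the 11555 genes that averaged 50 counts or more. Replicate 3 was lowest for the 3 TCF/LEF genes: Lef1 at 21.6, 11.9, 11.9 and 14.7 CPM in WT, Hmgn1-/-, Hmgn2-/- and double-knockout mESCs, Tcf7 at 47.4, 42.8, 40.1 and 45.8 CPM and Tcf7l1 at 65.4, 55.3, 56.5 and 51.5 CPM. Replicate 1 was lowest for Cdx1 (4, 5.75, 5.91 and 5.82 CPM) and Ccnd1 (233, 211, 223 and 227 CPM). For Lef1 the mean deviation of replicate 3 from its genotype mean was -0.35 on the log2 scale, near the size of the difference between double-knockout and WT mESCs. Axin2, Sp5 and Nkd1 showed no replicate number that was lowest in every genotype. What the libraries of 1 number shared in culture or handling is not given in the sources used here.

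**Figure D3:**
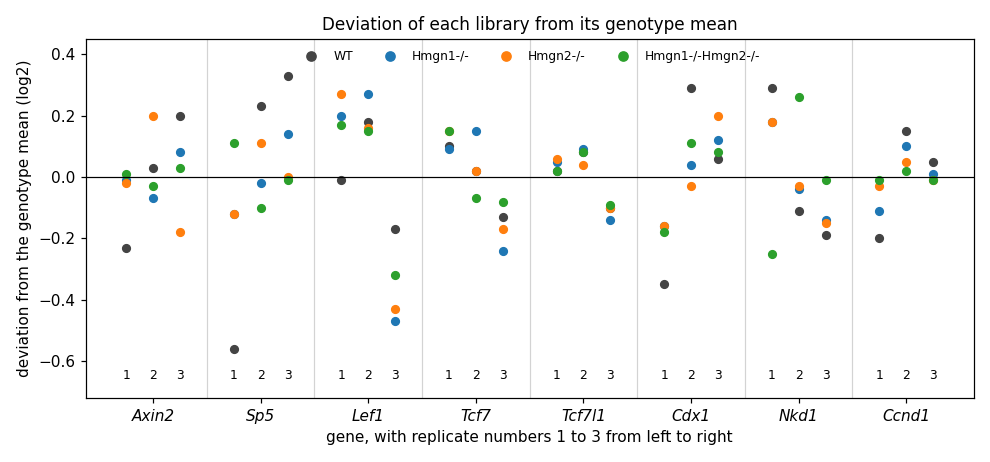
Deviation of each library from its genotype mean (log2 TMM-scaled CPM) for the 8 Wnt pathway genes, with replicates 1, 2 and 3 from left to right and colours for genotype. Replicate 3 lay below the mean in all 4 genotypes for Lef1 (mean -0.35), Tcf7 (-0.15), Nkd1 (-0.12) and Tcf7l1 (-0.11), and replicate 1 for Cdx1 (-0.21) and Ccnd1 (-0.09).

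Upstream of these genes, several Wnt ligands fell by more than 2-fold. Of 19 ligand genes, 12, 13 and 13 passed the filter on low counts in Hmgn1-/-, Hmgn2-/- and double-knockout mESCs, and 7 fell past the threshold in each, beside 5.08%, 4.38% and 5% of all genes tested that fell so. The filter keeps a gene that is counted in WT mESCs alone, so these counts describe the ligands that were measurable. With at least 10 counts required in every library 4 of 9, 4 of 8 and 6 of 10 ligands tested fell, beside 3.63%, 3.26% and 3.95% of all genes. Wnt3, Wnt4, Wnt5a, Wnt7a, Wnt7b and Wnt8a fell in all 3 knockouts, Wnt6 in both single knockouts and Wnt5b in double-knockout mESCs. Wnt7b, the most abundant of those that fell, stood at 14.4, 23 and 29.3 CPM in WT mESCs, against 3.03, 2.44 and 3.26 CPM in Hmgn1-/-, 3.15, 2.76 and 3.15 CPM in Hmgn2-/- and 1.86, 1.67 and 3.79 CPM in double-knockout mESCs. Its log2 fold changes were -2.92, -2.87 and -3.17, with edgeR adjusted p-values of 9.31e-07, 2.54e-05 and 2.46e-06. Wnt11 alone rose past the threshold, in double-knockout mESCs (1.19, adjusted p = 0.00459). Leaving out 1 library at a time gave 5 to 9, 4 to 7 and 5 to 8 ligands that fell. Wls, which carries Wnt proteins to the cell surface, fell by 1.42 and 1.29 on the log2 scale past the threshold in the single knockouts and by 0.83 in double-knockout mESCs (adjusted p = 0.00769).

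**Figure D4:**
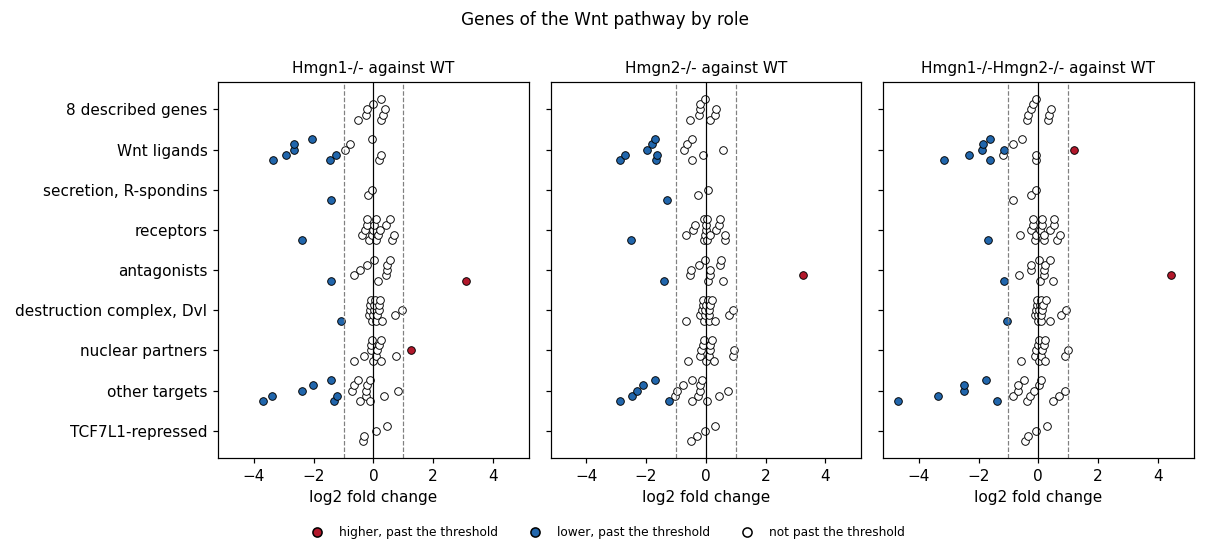
Log2 fold change against WT mESCs of Wnt pathway genes grouped by role, 1 point per gene tested and 1 panel per knockout, with dashed lines at a 2-fold change and colour for genes past the threshold (adjusted p under 0.01 and at least 2-fold). The 8 described genes all lie inside the dashed lines, while 7 ligands in each knockout are coloured as lower.

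Among 18 receptor genes, of which 17 were tested in each knockout, Ror1 alone passed the threshold, falling by 2.38, 2.51 and 1.67 on the log2 scale. This is 1 of 17, near the share of all genes past the threshold in either direction. That share was 5.98%, 5.15% and 6.3% in Hmgn1-/-, Hmgn2-/- and double-knockout mESCs. Ror1 held 17 to 29 counts per library in WT mESCs and 2 to 9 in the knockouts, so it passed the filter on low counts through WT mESCs. With any fold change allowed, 4, 1 and 5 receptor genes were higher at an adjusted p under 0.01, beside 17.3%, 9.97% and 18% of all genes in either direction. They were Fzd3, Fzd5, Fzd9 and Ror2 in Hmgn1-/-, Fzd9 in Hmgn2-/-, and Fzd3, Fzd5, Fzd9, Ror2 and Lgr4 in double-knockout mESCs. Of 18 antagonist genes, 11, 12 and 12 were tested in Hmgn1-/-, Hmgn2-/- and double-knockout mESCs. In each, 1 fell and 1 rose past the threshold, beside the shares of all genes given for the receptors. Dkk3 fell by 1.41, 1.40 and 1.16 on the log2 scale, and Dkk1, which blocks LRP5 and LRP6, rose in every knockout. Dkk1 stood at 0.219, 0.17 and 0.347 CPM in WT mESCs, 2.3, 2.05 and 2.25 CPM in Hmgn1-/- mESCs, 2.34, 2.69 and 2.32 CPM in Hmgn2-/- mESCs and 5.28, 5.2 and 6.6 CPM in double-knockout mESCs. With only 7, 3 and 10 counts in the WT libraries, Dkk1 passed the filter on low counts through the knockouts, where it is high. The fitted increases were 8.56-, 9.57- and 22.1-fold, with edgeR adjusted p-values of 1.07e-05, 5.36e-05 and 5.2e-08. Their size rests on those few WT counts. Dkk1 was also past the threshold in double-knockout against Hmgn1-/- mESCs, with a log2 difference of 1.37 (SE 0.167, adjusted p = 0.000161), and fell short of it against Hmgn2-/- mESCs at 1.21 (SE 0.164, adjusted p = 0.0273). The summed primitive endoderm markers given above were highest in the same libraries, and their part in the Dkk1 result was not tested. Of the 18 destruction complex and Dishevelled genes, all tested, Apc2 alone passed the threshold, falling in Hmgn1-/- (-1.09) and double-knockout mESCs (-1.04). Of 13 nuclear partners, all tested, Pygo1 alone passed it, rising in Hmgn1-/- mESCs (1.27). At most 1 gene of either list passed in a knockout, beside the shares of all genes given for the receptors. Ctnnb1, which encodes beta-catenin and was singled out after its values were seen, had log2 fold changes of -0.07, -0.09 and -0.06.

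Other reported Wnt targets, in a list that holds none of the antagonist genes above such as Dkk1, included several large falls. Of 20 such genes, 18 were tested in each knockout, and 7, 6 and 6 fell past the threshold, beside the shares of all genes given for the ligands. With at least 10 counts required in every library 4, 3 and 3 of 13 fell, since T, Cd44 and Wisp1, with 1 to 15 counts per knockout library, had passed the filter through WT mESCs. T, Id2, Cd44, Ccnd2, Wisp1 and Ctgf fell in all 3 knockouts and Jun past it in Hmgn1-/- mESCs. Ccnd2, which encodes the D-type cyclin next to Ccnd1 in function, held 44.1, 48.8 and 39.7 CPM in WT mESCs and 12.3 to 17.2 CPM across the knockout libraries, with log2 fold changes of -1.42, -1.71 and -1.74 (adjusted p = 1.88e-07, 5.73e-06 and 2.72e-08 in edgeR). Id2 fell by 2.38, 2.32 and 2.48 and the primitive streak gene T by 3.71, 2.89 and 3.37 on the log2 scale. Myc, in the same list, was higher in every knockout library than in every WT library, with 0.36, 0.44 and 0.49 (adjusted p = 0.00814, 0.0194 and 0.00118). Of the 4 genes listed as repressed by TCF7L1, none passed the threshold. An adjusted p under 0.01 was reached by Nanog, Esrrb and Klf2 in Hmgn1-/- and double-knockout mESCs, and by Nanog in Hmgn2-/- mESCs. Of all genes, 17.3%, 9.97% and 18% reached it in Hmgn1-/-, Hmgn2-/- and double-knockout mESCs. Nanog had -0.32, -0.50 and -0.45, Klf2 -0.35, -0.28 and -0.35, Esrrb 0.47, 0.32 and 0.28, and Tfcp2l1 0.07, -0.02 and -0.08.

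**Figure D5:**
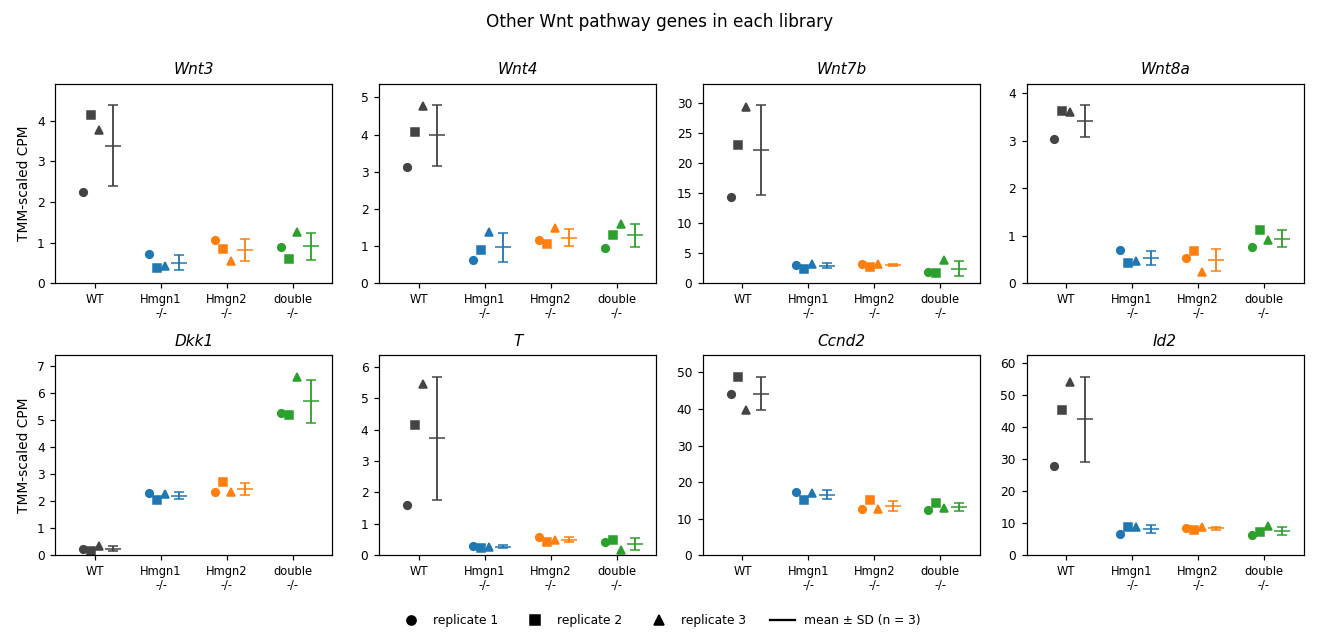
TMM-scaled CPM of 8 other Wnt pathway genes in the 12 libraries, with replicate numbers as symbols and the mean ± SD (n = 3) beside each genotype. The 4 ligands, T, Ccnd2 and Id2 were lower in every knockout library than in every WT library, and Dkk1 was higher.

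Some markers of other cell types fell as well. Of 6 trophoblast markers, 5 were tested in each knockout. Gata3, Krt7 and Hand1 fell past the threshold in each, beside 5.08%, 4.38% and 5% of all genes in Hmgn1-/-, Hmgn2-/- and double-knockout mESCs. The list summed to 51.5, 58.3 and 68.1 CPM in WT mESCs, 32.6, 37.7 and 38.2 CPM in Hmgn1-/-, 41.2, 40.2 and 39.5 CPM in Hmgn2-/- and 29.2, 31.3 and 33.5 CPM in double-knockout mESCs, with Tfap2c the most abundant and Elf5 at or below 3 counts in all knockout libraries. Of 8 fibroblast markers, 4 were tested in each knockout, and Col1a1, Col1a2 and Thy1 fell past the threshold, beside the same shares of all genes. Fn1, the remaining one tested, had higher means of 570, 456 and 439 CPM in Hmgn1-/-, Hmgn2-/- and double-knockout mESCs, against 379 CPM in WT mESCs. It was past the threshold in no knockout, but reached an adjusted p under 0.01 in Hmgn1-/- mESCs in edgeR. Lum and Dcn were at or below 3 counts in every library and Col3a1 and Postn in every knockout library. Gata3 and Col1a2 held only 1 to 20 counts per knockout library, and WT mESCs alone were enough to carry them through the filter on low counts. The sum of that list, most of it Fn1, was 408, 412 and 375 CPM in WT mESCs, 596, 667 and 462 CPM in Hmgn1-/-, 557, 501 and 328 CPM in Hmgn2-/- and 499, 445 and 394 CPM in double-knockout mESCs. Of 7 primitive streak markers, all tested, T and Evx1 fell past the threshold in both single knockouts and T in double-knockout mESCs. Evx1 held 4 to 18 counts per single-knockout library and passed the filter on low counts through WT mESCs, at 28, 49 and 69 counts. The shares of all genes that fell are those given for the trophoblast markers. Tbx6, Mixl1 and Mesp1 had higher means in each knockout than in WT mESCs, none past the threshold. The streak list, led by Eomes, summed to 14.6, 18.8 and 19.6 CPM in WT mESCs and to 10.3 to 13 CPM across the knockout libraries. The part of these cell types in the fall of the ligands and of the other targets was not tested.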

How the data were processed

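The files deposited by the authors hold raw, unnormalized counts of reads per gene for 23412 genes and 12 libraries. Per the labels and the study's methods, poly-A libraries of 3 biological replicates per genotype were sequenced as paired ends, and reads were aligned to mm10 with STAR; the authors then used DESeq2. The counting program, annotation and strand setting are not given in the sources used here. From the counts, each pair of genotypes was compared with edgeR 4.0.16 (quasi-likelihood test, TMM scaling, filterByExpr, R 4.3.3), with Benjamini-Hochberg adjustment over all genes tested. "Past the threshold" means an adjusted p under 0.01 and an absolute log2 fold change of at least 1. Intervals are 95% intervals from the same fit, and p-values measure the spread between libraries, each knockout being 1 clone. The code was tested on simulated data with known changes. Per-kilobase levels used the union of GENCODE exons on GRCm38.

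The 8 genes, the pathway lists and the marker lists were chosen with earlier results of these data known. Named were the 8 genes, pathway-list genes past the threshold against WT mESCs, Hmgn1 and Hmgn2, and marker genes; for a gene of the 8 past the threshold, the 3 genes most like it would have been named, and none was. Genes outside this rule were chosen after their values were seen.

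Replicate numbers came from the labels. Deviations from group means correlated across 11555 genes at 0.0714 to 0.615 (median 0.272) in 18 same-number pairs and at -0.513 to 0.0948 (median -0.154) in 36 others. All 3 same-number pairs exceeded 0.1 for Hmgn1-/- and double-knockout against WT, Hmgn2-/- against Hmgn1-/- and double-knockout against Hmgn2-/- mESCs, and there the replicate block is given where it changes a call. Alternatives were DESeq2 1.42.0, RLE scaling, other filters on low counts, a single fit of all libraries, the replicate block, another adjusted p limit and leaving out each library.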

Additional observations from a re-analysis of the deposited data

How the results depend on the processing

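For the 8 genes, 566 of 624 alternative log2 fold changes kept their direction and side of the adjusted p limit. Against WT mESCs 281 of 312 did, with 15 newly past the limit on the adjusted p, 8 no longer past it and 8 changing sign. No alternative placed any of the 8 past the 2-fold threshold in any comparison. The count of the 8 with an adjusted p under 0.01 in Hmgn1-/- mESCs was 0, and became 1 with DESeq2, 2 with no filter beyond 1 count and 2 at an adjusted p limit of 0.05. In Hmgn2-/- mESCs it was 0 and became 1 at the limit of 0.05. In double-knockout mESCs it was 2 and became 4 with no filter, 1 with all 12 libraries in a single fit and 4 at the limit of 0.05. Leaving out 1 library gave 0 to 1 in Hmgn1-/- mESCs and 0 to 2 in double-knockout mESCs, where 0 came without WT replicate 2 or double-knockout replicate 3. The cause of these shifts was not tested.

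With the replicate block, the count of the 8 in Hmgn1-/- mESCs was 2, Sp5 in Hmgn2-/- mESCs went from -0.03 to 0.01, and genes past the threshold for double-knockout against Hmgn2-/- mESCs went from 6 to 32. The block changed no other call of the 8 genes than those of Lef1 and Ccnd1 given with their results. Same-number pairs did not all exceed a correlation of 0.1 for Hmgn2-/- against WT mESCs (0.122, 0.332 and 0.0797) and double-knockout against Hmgn1-/- mESCs (0.359, 0.0714 and 0.444), and the block moved genes past the threshold there from 724 to 676 and from 70 to 95. That count of 6 became 29 with DESeq2, 21 with no filter, 18 in the single fit and 24 at the limit of 0.05, and ran from 1 to 12 without 1 library.

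Some log2 fold changes changed sign when 1 library was left out. Against WT mESCs they ran from -0.01 to 0.47 for Sp5 and -0.10 to 0.08 for Tcf7 in Hmgn1-/- mESCs, -0.30 to 0.17 for Sp5 in Hmgn2-/- mESCs and -0.46 to 0.02 for Sp5 in double-knockout mESCs. For Hmgn2-/- against Hmgn1-/- mESCs they ran from -0.24 to 0.14 (Lef1), -0.07 to 0.04 (Tcf7l1), -0.06 to 0.13 (Cdx1), -0.20 to 0.03 (Nkd1) and -0.05 to 0.06 (Ccnd1). Double-knockout against Hmgn1-/- mESCs gave -0.08 to 0.27 (Lef1), -0.17 to 0.01 (Tcf7), -0.04 to 0.14 (Cdx1), -0.21 to 0.09 (Nkd1) and -0.04 to 0.06 (Ccnd1). Double-knockout against Hmgn2-/- mESCs gave -0.02 to 0.30 (Lef1), -0.08 to 0.10 (Cdx1), -0.13 to 0.18 (Nkd1) and -0.01 to 0.03 (Ccnd1).

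Added after seeing the data, the counts of ligands and other targets that fell were recomputed in each setting. With at least 10 counts in every library, which drops genes that are low in the knockouts, the ligands were 4, 4 and 6 and the other targets 4, 3 and 3 in Hmgn1-/-, Hmgn2-/- and double-knockout mESCs. Without 1 library the ligands in Hmgn2-/- mESCs ran from 4 to 7. With 3 libraries per genotype, intervals against WT mESCs were widest for Nkd1 and Sp5.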

Other observations

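Markers of the cells' developmental state that are not part of the Wnt pathway also moved. Of 5 markers of primed pluripotency, all tested, Fgf5 and Pou3f1 fell past the threshold in each knockout. Of all genes, 5.08%, 4.38% and 5% fell so in Hmgn1-/-, Hmgn2-/- and double-knockout mESCs. Fgf5 passed the filter on low counts through WT mESCs, being low in the knockouts. Fgf5, a growth factor gene of the early epiblast, stood at 5.35, 5.09 and 3.68 CPM in WT mESCs, with log2 fold changes of -4.40, -3.69 and -4.13 in Hmgn1-/-, Hmgn2-/- and double-knockout mESCs (edgeR adjusted p = 3.95e-07, 3.59e-05 and 2.04e-07) and 2 to 12 counts per knockout library. Pou3f1 stood at 99, 102 and 94.9 CPM in WT mESCs, with log2 fold changes of -1.34, -1.51 and -1.46. Otx2 had -0.77, -0.97 and -0.81, and the DNA methyltransferase gene Dnmt3a had 0.70, 0.83 and 0.92. Dnmt3b, the most abundant of the 5 in WT mESCs, had 0.06, -0.01 and -0.14, and the summed list had group means of 960, 1090, 1100 and 1100 CPM in WT, Hmgn1-/-, Hmgn2-/- and double-knockout mESCs. Of 5 neural markers none passed the threshold, although Sox1 had 0.58, 0.69 and 0.81 and Nes -0.70, -0.79 and -0.78. Among 10 mESC markers none passed it and both signs occurred, with 0.93, 0.69 and 0.74 for Klf4, a factor of naive pluripotency, and -0.32, -0.50 and -0.45 for Nanog. The summed mESC markers had group means of 7080, 7400, 7270 and 7070 CPM in the WT, Hmgn1-/-, Hmgn2-/- and double-knockout mESCs.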
